A study of Mus musculus with 46 samples.

Results

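The expression of 9 transcription factors that set the fate of T cells was examined in MC-38 tumors after PD-1 was blocked by antibody or after its gene was deleted. The members were chosen by name and not by their values, as 9 of the 48795 genes in the table. Tbx21, Eomes, Tox, Prdm1, Id2, Batf and Gata3 formed the effector and exhaustion side (7 genes), and Tcf7 and Lef1 formed the naive and memory side (2 genes). Each was also set against Cd3e, which encodes a chain of the T-cell receptor complex and served as the measure of T-cell RNA in bulk tissue.

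RNA-seq covered 46 samples in 8 groups, namely 3 cultures of MC-38, a mouse colon carcinoma line, and 43 tumors that these cells formed under the skin of mice. WT mice gave 3 baseline tumors, for which the labels name neither an agent nor a day, and 4 groups of 5 tumors from mice dosed at 5 mg/kg with the anti-mouse PD-1 antibody muDX400 or given isotype control antibody. These groups were labelled day 4 (1 dose) and day 8 (2 doses) of treatment, which the methods place at days 11 and 15 post-implant. The last 2 groups were 10 tumors labelled PD-1cKO, from mice with loxP sites around exons 2 and 3 of Pdcd1 and a tamoxifen-inducible Cre under the Rosa26 promoter, and 10 from littermates labelled WT.

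Both of these groups received tamoxifen at 40 mg/kg on 5 consecutive days. The Cre was not limited to T cells, so every cell type of the host could lose the gene, whereas the implanted MC-38 cells carried neither allele. The labels place the tumors at day 28, as do the table and main figure legend of the study's RNA-seq, and the methods at day 22. A supplementary legend gives both days. Mice were 8 to 10 weeks old. The targeted gene did not check the labels, because the values cover the whole of Pdcd1 and not the deleted exons alone. Pdcd1 was at 1.71 to 7.02 FPKM in WT tumors and at 5.05 to 19.9 in tumors labelled PD-1cKO, which was higher and not lower.

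The table gives FPKM, the fragments of a gene scaled both for transcript length and for the size of the library, a unit that allows levels to be compared between genes. It holds no counts, and the error given is the spread between samples. The methods give a range of mapped reads over all samples but not the number for each, so the depth behind each value is unknown. Isotype control tumor 1 after 1 dose stood apart, with 54.6% of its summed FPKM in mitochondrial genes against 3.45% to 4.31% in the other 4 tumors of its group. The differences named for 1 dose are given with and without that tumor. In bulk tissue, fewer cells of a type and less RNA per cell cannot be told apart.

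T cells leave the naive state when their receptor is engaged. Tcf7 (TCF-1) and Lef1, relatives that bind the same DNA motif, keep T cells in the naive and memory state and sustain the stem-like cells from which exhausted cells renew. Tbx21 (T-bet) and Eomes, both T-box factors, drive the effector program with Id2 and Prdm1 (Blimp-1), whereas Tox fixes the exhausted state that follows persistent antigen and that PD-1 marks. Batf joins AP-1 complexes downstream of the receptor, and Gata3 directs type 2 helper cells. Several of these genes are also used outside T cells, for example Id2 by innate lymphoid and dendritic cells, Batf by dendritic cells, and Lef1 and Tcf7 by epithelia.

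The members lie on 7 chromosomes in GENCODE M21 (build GRCm38). Tbx21 is at chr11:97098071-97115331 and Tcf7 at chr11:52252371-52283014, both on the minus strand, and Lef1 at chr3:131110471-131224356 on the plus strand. Eomes is at chr9:118478212-118486132 and Batf at chr12:85686669-85709087, both on the plus strand. On the minus strand lie Tox at chr4:6686353-6991557, Prdm1 at chr10:44437177-44528501, Id2 at chr12:25093799-25097140 and Gata3 at chr2:9857078-9890034. FPKM sums the exons of each gene.

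RefSeq promoter entries (build GRCm38.p6) were given for 8 of the 9 members, 12 entries in all, and none for Tox. Windows of 250 bases before the start are shown for 3 members. They are a gene of each side of the comparison (Tbx21, which rose, and Tcf7, which did not) and the member whose window, alone among the 12, held an AP-1 motif (Prdm1). Capitals mark motif matches.

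Tbx21, chr11:97115332-97115581, minus strand: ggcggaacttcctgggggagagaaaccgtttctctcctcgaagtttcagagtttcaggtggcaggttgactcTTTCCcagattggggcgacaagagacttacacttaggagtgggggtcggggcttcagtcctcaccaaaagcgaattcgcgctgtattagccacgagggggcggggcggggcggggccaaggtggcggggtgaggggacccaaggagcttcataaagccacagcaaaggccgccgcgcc

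Tcf7, chr11:52283015-52283264, minus strand: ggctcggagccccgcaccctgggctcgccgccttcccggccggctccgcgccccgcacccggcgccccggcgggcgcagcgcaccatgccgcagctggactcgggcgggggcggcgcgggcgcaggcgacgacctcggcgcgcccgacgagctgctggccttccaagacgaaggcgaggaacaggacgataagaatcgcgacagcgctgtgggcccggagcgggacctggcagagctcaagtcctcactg

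Prdm1, chr10:44458749-44458998, minus strand: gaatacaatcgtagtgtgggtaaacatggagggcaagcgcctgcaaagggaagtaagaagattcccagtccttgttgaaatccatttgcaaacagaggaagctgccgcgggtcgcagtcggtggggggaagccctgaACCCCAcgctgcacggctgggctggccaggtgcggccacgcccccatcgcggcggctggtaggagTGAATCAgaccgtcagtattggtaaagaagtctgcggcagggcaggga

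Motifs were searched on both strands. The STAT motif GAS (TTCNNNGAA) occurred in 7.02% of all 32851 windows of this length, the TCF/LEF motif ATCAAAG in 3.21% and the T-box motif AGGTGTGA in 1.12%, and none of the 3 was found in a window of a member. The AP-1 motif TGANTCA occurred in 6.75% of all windows, the RUNX motif TGNGGT in 40.1% and the NFAT core GGAAA in 55.6%. The last 2 were added after the others had been counted. In Tbx21 the capitals mark 1 NFAT core, 178 bases before the start. In Prdm1 they mark an AP-1 motif at 48 bases and a RUNX motif at 113 bases. The Tcf7 window shown is the first of 2 entries and held no match, whereas the second (chr11:52282596-52282845, not shown) held 2 NFAT cores, at 151 and 53 bases before its start. The GC content was 76% in the first and 64.4% in the second, against 60.8% in Tbx21, 59.2% in Prdm1 and a median of 52.4% over all windows. A match is a run of letters and not a measured site. In the first Tcf7 window an ATG is followed by a reading frame that stays open to the end of the window. That window may thus hold coding sequence, so its GC content and lack of a match need not be those of a promoter.

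In culture, MC-38 cells already expressed 5 of the 9 members. Tcf7 was at 13.2, 13.8 and 15.0 FPKM in the 3 cultures, Id2 at 10.6, 10.7 and 11.2, Lef1 at 1.93, 1.93 and 2.19, Gata3 at 1.61, 1.65 and 1.82, and Eomes at 1.16, 1.21 and 1.42. Prdm1 was low (0.187 to 0.29), Tox reached 0.0091 in 1 culture, and Tbx21, Batf and Cd3e were listed at 0 in all 3. The defining genes of the T-cell receptor complex Cd3d, Cd3e, Cd3g and Cd2 were all at 0 there.

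The tumors labelled isotype control after 2 doses were compared with these cultures to see which members the cell line itself could supply. Of 8 members tested, 5 were called higher in tumors (adjusted p under 0.01 and at least 2-fold), against 14.2% of all tested genes called higher and 7.09% called lower. Prdm1 rose by 4.87 on the log2 scale (SE 0.28, adjusted p = 8.26e-07), Gata3 by 1.39 (SE 0.13, adjusted p = 2.18e-05) and Lef1 by 1.40 (SE 0.13, adjusted p = 1.82e-05). Tbx21 and Batf were also called, from a group listed at 0, so no fold is given for them. Genes were tested where 1 of the groups averaged 0.5 FPKM or more, and these 2 and Prdm1 averaged less than that in culture, so they entered the test through the tumors. Tox lay under this filter in both groups.

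Tcf7 differed little from culture to tumor. Its level was 15.8 FPKM ± 1.77 (SD, n = 5) in isotype control tumors after 2 doses and 14.0 ± 0.90 (n = 3) in culture, so that the culture mean was 88.5% of the tumor mean. The difference was 0.17 on the log2 scale (95% interval -0.07 to 0.41, adjusted p = 0.202). For Id2 the culture mean was 57.0% of the tumor mean and for Lef1 36.7%, with Id2 higher in tumors by 0.80 (SE 0.09, adjusted p = 8.24e-05), under the 2-fold limit. Eomes was at 126% and differed by -0.31 (SE 0.18, adjusted p = 0.180).

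In 7 members every one of the tumors lay above every culture, against 26.3% of the 15199 genes tested, and Eomes lay below every culture, against 33%. Those 7 were Tbx21, Tox, Prdm1, Id2, Batf, Gata3 and Lef1. Tox lay under the filter and is not among the genes behind these shares. Which share of each RNA in a tumor came from MC-38 cells was not tested.

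**Figure D1:**
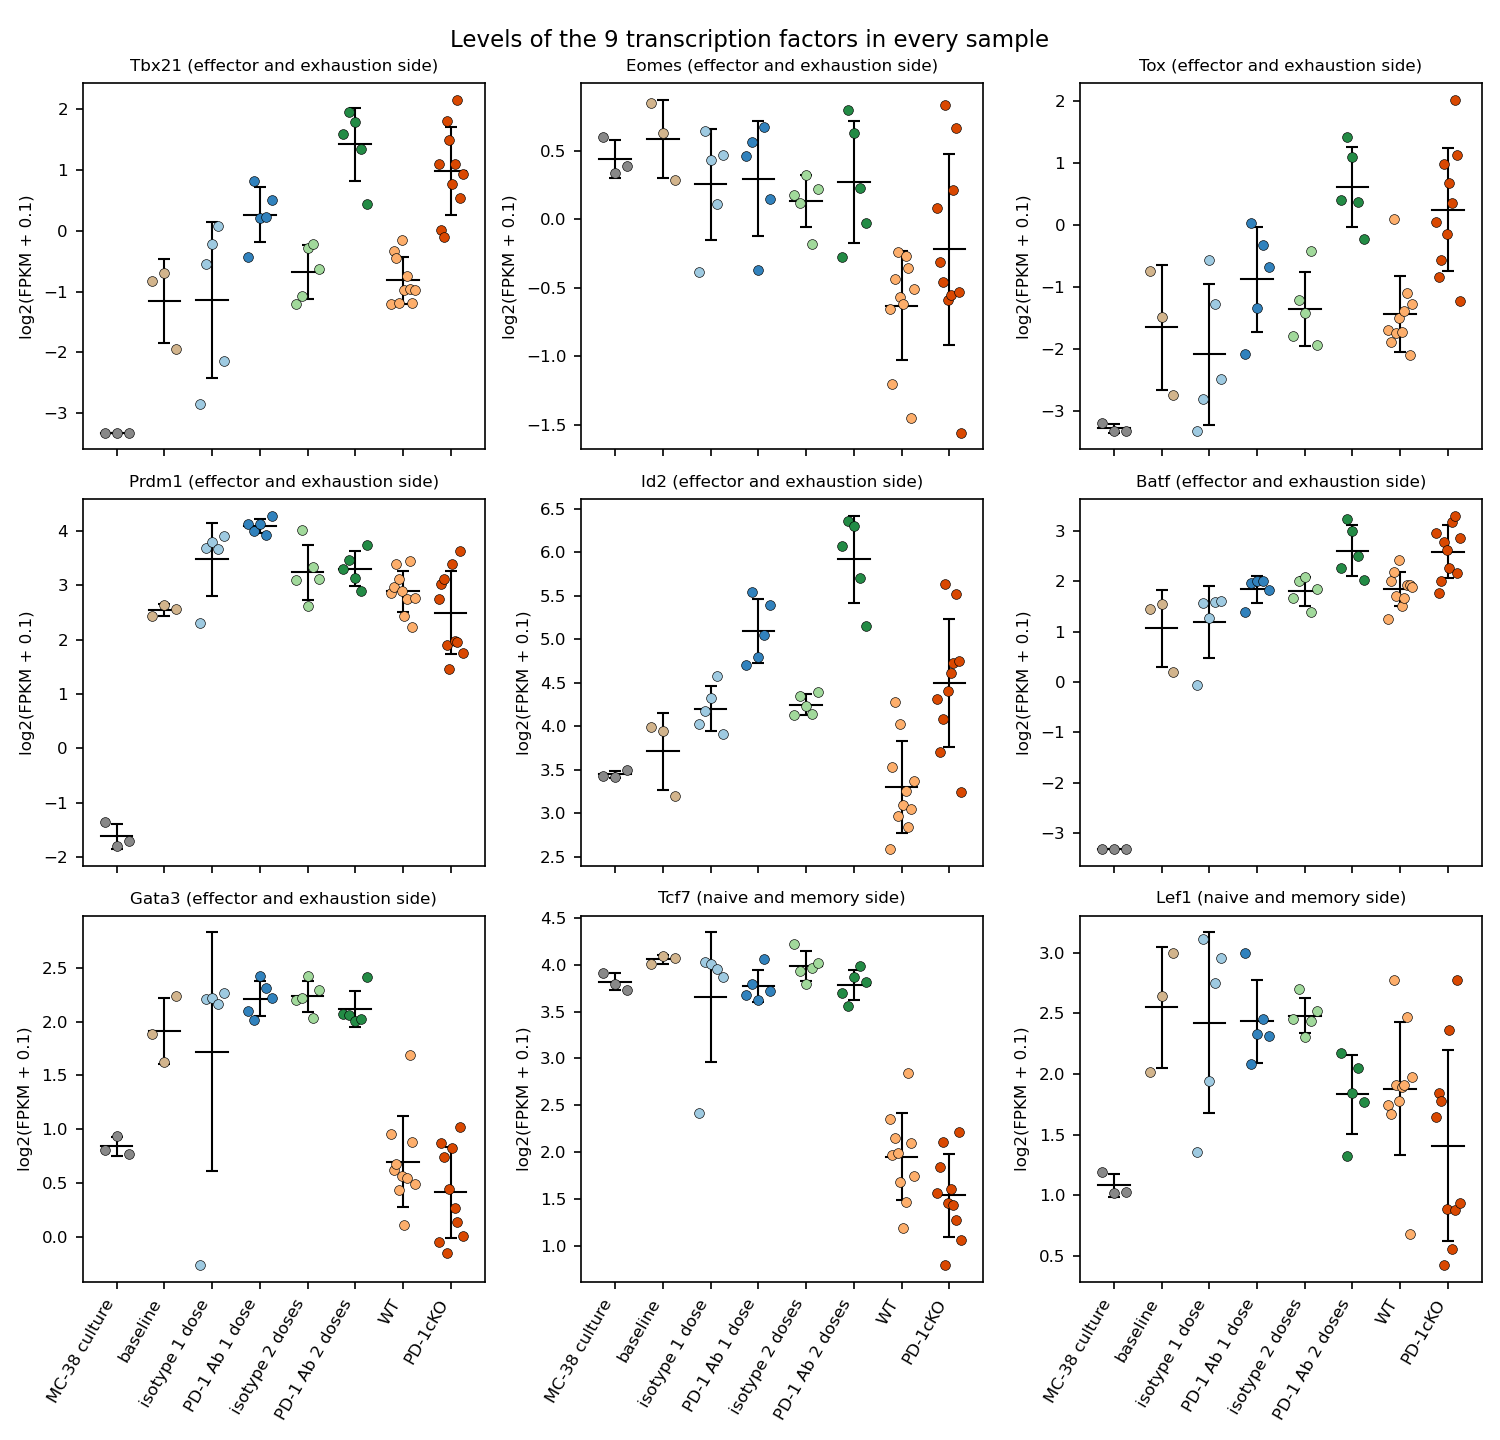
Level of each of the 9 members as log2(FPKM + 0.1) in every sample of the 8 groups, 1 panel per member. Each point is a sample, the long bar is the group mean and the whisker is the SD. Tbx21, Tox and Id2 sit higher in PD-1 Ab-treated tumors after 2 doses and in tumors labelled PD-1cKO than in their controls, while Tcf7 in culture (13.2 to 15.0 FPKM) lies within the spread of the antibody experiment.

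Baseline tumors were compared with isotype control tumors after 2 doses to see whether the members moved without the drug. No member of 8 tested was called, against 0.428% of all genes called higher and 0.167% called lower (89 genes, limma). The count of all genes ran from 13 to 166 with 1 tumor left out and was 0 with the replicate number as a block, and no member was called in any of these fits. At an unadjusted p under 0.05 there were 3 members, all lower at baseline. Id2 was at 9.09, 15.3 and 15.8 FPKM at baseline and between 17.4 and 21.0 in isotype control tumors, so the groups did not overlap (5.51% of all genes were below every control). Its difference of -0.54 did not pass (SE 0.18, adjusted p = 0.154).

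After 1 dose of antibody no member passed the test. Neither did any gene of the table (0% called higher and 0% called lower of 14556), although 895 genes and 2 members had an unadjusted p under 0.05. Fitting all groups together called 16 genes. Without isotype control tumor 1, 7 genes and no member were called, and 2472 genes and 3 members had an unadjusted p under 0.05. Id2 was at 26.0, 46.4, 27.6, 33.1 and 41.8 FPKM in PD-1 Ab-treated tumors and at 16.2, 17.9, 20.0, 23.7 and 14.9 in isotype control tumors. Every treated tumor was above every control, as in Prdm1, and 3.59% of all genes behaved that way.

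The difference of Id2 was 0.89 (SE 0.22, adjusted p = 0.276, limma), and 0.85 (adjusted p = 0.0632) without isotype control tumor 1. Tbx21 was at 0.646, 1.66, 1.06, 1.07 and 1.32 FPKM against 0.0394, 0.582, 0.764, 0.957 and 0.126, which overlapped. Its difference was 1.40 (SE 0.57, adjusted p = 0.728) and 0.98 without tumor 1. Tox differed by 1.21 and by 0.90 without it.

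Tcf7 and Lef1 differed by 0.12 and 0.01 after 1 dose. These 2 values and that of Eomes (0.04) carried no direction, since scaling the samples by the median of ratios turned them to -0.13, -0.23 and -0.19. The median of all genes was 0.26 as deposited and 0.02 after that scaling. Without tumor 1 they were -0.19 for Tcf7, -0.25 for Lef1 and -0.12 for Eomes, and Gata3 went from 0.49 to -0.004.

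After 2 doses, Tbx21, Tox and Id2 rose with the treatment and the 6 other members were not called. In this comparison 5.03% of all genes were called higher and 0.272% lower, and the median of all genes was -0.04. Every treated tumor lay above every control for the same 3 members, against 9.23% of all genes, and below every control for Lef1 alone, against 6.12%.

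Tbx21 was at 2.92, 3.78, 3.36, 2.43 and 1.25 FPKM in the 5 PD-1 Ab-treated tumors and at 0.336, 0.379, 0.722, 0.762 and 0.548 in the isotype control tumors. The groups did not overlap, and treated tumor 5 was the lowest of its group. Tbx21 rose by 2.10 on the log2 scale (SE 0.32, adjusted p = 0.00165). Tox was at 1.22, 2.59, 2.04, 1.20 and 0.761 FPKM against 0.190, 0.332, 0.276, 0.645 and 0.162, again without overlap. It rose by 1.97 (SE 0.38, adjusted p = 0.00509). Tox averaged 0.321 FPKM in the controls, under the filter, and was tested only because of its level in treated tumors. Without a filter on low values its call was lost (adjusted p = 0.0141), whereas that of Tbx21 held (adjusted p = 0.00671). The call of Tox was also lost in 8 of the 10 fits that left out 1 tumor (adjusted p from 0.00131 to 0.0199), and the change was 0.92 when 1 FPKM was added in place of 0.1.

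Id2 was the most abundant of the 3, at 66.9, 82.0, 78.9, 52.1 and 35.5 FPKM in treated tumors and 17.4, 20.3, 18.7, 17.5 and 21.0 in controls. It rose by 1.67 (SE 0.20, adjusted p = 0.000885). The lowest treated tumor was again tumor 5. Cd3e, set beside them, was at 12.1, 19.0, 15.9, 15.1 and 4.48 FPKM in treated tumors and 0.932, 1.55, 2.77, 3.27 and 2.46 in controls. Cd3e rose by 2.52 (SE 0.41, adjusted p = 0.00219), and its lowest treated tumor was tumor 5 too.

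Batf and Lef1 moved in opposite directions and neither passed. Batf was at 4.70, 9.40, 7.96, 5.56 and 4.00 FPKM against 3.06, 3.95, 4.17, 2.51 and 3.53, with treated tumor 5 inside the range of the controls. It differed by 0.81 (SE 0.24, adjusted p = 0.0302). Lef1 was at 4.41, 2.40, 3.49, 4.04 and 3.30 FPKM in treated tumors and at 5.37, 6.40, 4.84, 5.30 and 5.62 in controls. All treated tumors were below all controls, and the difference was -0.65 (SE 0.17, adjusted p = 0.0181).

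Tcf7 was at 12.8, 11.7, 14.5, 15.7 and 14.0 FPKM in treated tumors and 18.6, 15.2, 13.7, 15.5 and 16.1 in controls. These ranges overlapped, with a difference of -0.20 (SE 0.11, adjusted p = 0.197). The last 3 members showed the smallest differences, of 0.14 for Eomes (0.727 to 1.64 FPKM against 0.785 to 1.15), 0.07 for Prdm1 (7.31 to 13.3 against 6.07 to 16.2) and -0.12 for Gata3 (3.91 to 5.22 against 4.00 to 5.27). Their 95% intervals were -0.40 to 0.68, -0.45 to 0.58 and -0.40 to 0.17.

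In tumors labelled PD-1cKO the same 3 members were called higher than in WT tumors, and no member was called lower. Here 4.2% of all genes were called higher and 3.87% lower, and the median of all genes was -0.20 (-0.05 after median-of-ratios scaling). Tbx21 had a lowest, median and highest value of 0.838, 1.92 and 4.37 FPKM in the 10 tumors labelled PD-1cKO and 0.336, 0.411 and 0.806 in the 10 WT tumors. It was the only member without overlap, a pattern seen in 0.643% of all genes. Tbx21 rose by 1.80 (SE 0.26, adjusted p = 0.000423). Its WT mean of 0.488 FPKM was under the filter, so it was tested because of its level in tumors labelled PD-1cKO, and without a filter its adjusted p was 0.0013.

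Tox ranged from 0.329 to 3.98 FPKM around a median of 1.06 in tumors labelled PD-1cKO and from 0.134 to 0.970 around 0.231 in WT tumors. It rose by 1.68 (SE 0.36, adjusted p = 0.00214), from a WT mean of 0.311 FPKM that was under the filter as well, and its adjusted p without a filter was 0.00544. Id2 ranged from 9.39 to 49.6 FPKM around 22.7 and from 5.92 to 19.3 around 8.98. It rose by 1.20 (SE 0.27, adjusted p = 0.00263), and both genes overlapped between the groups. Cd3e ranged from 2.36 to 16.0 FPKM around 6.24 against 0.796 to 5.83 around 1.32, and rose by 1.96 (SE 0.33, adjusted p = 0.000726).

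Batf was at 3.30 to 9.76 FPKM (median 6.47) against 2.27 to 5.28 (median 3.66). Its difference of 0.74 (SE 0.19, adjusted p = 0.0055) passed the p limit and fell short of 2-fold. Lef1 and Tcf7 had lower medians in tumors labelled PD-1cKO, at 2.42 against 3.63 FPKM and 2.76 against 3.86, with broad overlap. The differences were -0.47 for Lef1 (SE 0.29, adjusted p = 0.179) and -0.41 for Tcf7 (SE 0.20, adjusted p = 0.0937), which were -0.32 and -0.26 after median-of-ratios scaling. Prdm1 (-0.39), Gata3 (-0.29) and Eomes (0.41) did not pass either (adjusted p = 0.210, 0.235 and 0.201).

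**Figure D2:**
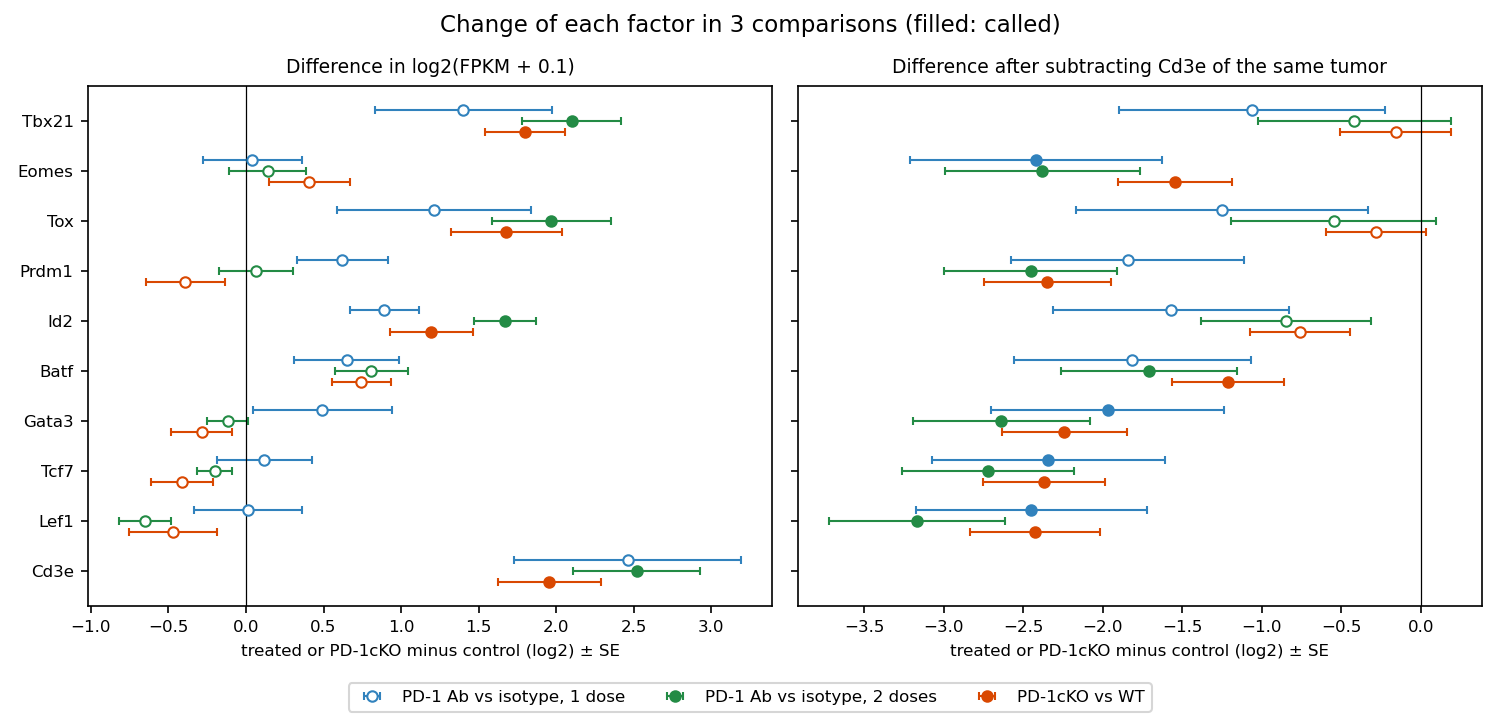
Log2 fold change of each member, with its SE as the bar, for PD-1 Ab against isotype control after 1 and 2 doses and for PD-1cKO against WT, as measured (left, with Cd3e) and after the log2 value of Cd3e in the same tumor is subtracted (right). Filled points were called. On the left Tbx21, Tox and Id2 were called after 2 doses and in PD-1cKO, between 1.20 and 2.10. On the right these 3 are the ones not called in those 2 comparisons, where 88.8% and 92.1% of all genes were called lower.

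The sample identifiers in the labels fall into 3 runs, and these nearly coincide with genotype. Tumors labelled PD-1cKO and WT tumors number 7 and 0 in the first run, 1 and 9 in the second and 2 and 1 in the third. With the run as a covariate none of the 3 calls held, at 2.43 for Tbx21 (adjusted p = 0.0254), 2.52 for Tox (adjusted p = 0.0257) and 1.54 for Id2 (adjusted p = 0.0299). That fit called 0 of all tested genes, against 1217 without the covariate, so the loss was not particular to these members. Within the second run Tbx21 was at 4.37 FPKM in the tumor labelled PD-1cKO against 0.336 to 0.806 in WT, Tox at 3.98 against 0.134 to 0.970 and Id2 at 45.8 against 5.92 to 19.3.

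Within the third run Tbx21 was at 1.36 and 1.81 FPKM against 0.407, Tox at 0.329 and 2.09 against 0.314, and Id2 at 9.39 and 26.7 against 10.3. In both runs every tumor labelled PD-1cKO was above the WT tumors for Tbx21 and Tox, with 1 exception for Id2. What the runs stand for is not given in the sources used here.

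The changes in the antibody and the deletion experiment were then tested against each other. No member differed in its change after 2 doses and in PD-1cKO, against 0.0792% of all genes called higher and 0.0122% called lower (15 of 16404 genes, limma). The 15 became 2 with upper-quartile scaling and 2 to 55 with 1 tumor left out, without a member among them. No member had an unadjusted p under 0.05, and the lowest adjusted p was 0.563, for Id2. The change of Tbx21 was 0.30 larger after 2 doses, with a 95% interval of -0.58 to 1.18, and that of Tox was 0.29 larger, with an interval of -0.88 to 1.47. Both intervals reach past a 2-fold difference in the size of the change.

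Between 2 doses and 1 dose no member differed in its change either (0% called higher and 0% called lower of 15289 genes, 1182 of them at an unadjusted p under 0.05). Id2 was the 1 member with an unadjusted p under 0.05, at 0.78 (SE 0.31, adjusted p = 0.623, limma). Without isotype control tumor 1 of the 1-dose group this was 0.82 (adjusted p = 0.172), and again no gene was called, with 2802 genes at an unadjusted p under 0.05.

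Levels differed between the experiments as well, and are given side by side because the experiments were not compared by a test. Their FPKM may not share a scale, since the sum over all genes differed too. It ran from 455797 to 569885 in isotype control tumors after 2 doses and from 621233 to 946853 in WT tumors. Tcf7 was at 11.7 to 18.6 FPKM in tumors of the 2-dose groups and at 1.64 to 7.07 in tumors of the tamoxifen experiment. Gata3 was at 3.91 to 5.27 and at 0.804 to 3.13. In the order of medians over the 8 groups, Tcf7 was lowest in PD-1cKO and WT tumors, which overlapped with each other and with no other neighbour in the order. Isotype control tumor 1 after 1 dose, of a group farther up the order, lay within the WT range at 5.26 FPKM. For Tbx21 the order ran from culture through WT, baseline, isotype control after 2 doses and after 1 dose, PD-1 Ab after 1 dose and PD-1cKO to PD-1 Ab after 2 doses, and from WT upward each neighbour overlapped the next.

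For Prdm1 the order began with culture and ended with PD-1 Ab-treated tumors after 1 dose (15.2 to 19.3 FPKM), which did not overlap with the group before them, isotype control after 1 dose (4.83 to 14.9). For Batf the PD-1 Ab-treated tumors after 2 doses (4.00 to 9.40) and the tumors labelled PD-1cKO had the highest medians, and the former did not overlap with the group before them, PD-1 Ab after 1 dose (2.53 to 3.95). Tox, Eomes, Id2 and Lef1 overlapped between all neighbours.

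The members were next read per unit of Cd3e, by subtracting the log2 value of Cd3e in the same tumor. On this scale the fall of a gene mirrors the rise of Cd3e unless the gene rises as well. The median of all genes was -2.56 after 2 doses and -2.16 in PD-1cKO, and 88.8% and 92.1% of all genes were called lower. Every gene carries the error of Cd3e here, so genes share their p-values in part, and a permutation test of each ratio over tumors, chosen after the values were seen, was added. The smallest p it can give is 0.00794 for 5 against 5 tumors (exact) and 1e-05 for 10 against 10. In all 72 ratios were tested, and these p-values are not adjusted.

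Neither Tbx21 nor Tox was called different relative to Cd3e after 2 doses or in PD-1cKO. The mean log2 ratio of Tbx21 to Cd3e was -2.17 ± 0.31 (SD, n = 5) in PD-1 Ab-treated tumors after 2 doses and -1.76 ± 0.30 in controls, a difference of -0.42 (95% interval -1.61 to 0.77, limma adjusted p = 0.498, exact permutation p = 0.0635). In tumors labelled PD-1cKO it was -1.63 ± 0.63 (n = 10) against -1.47 ± 0.72 in WT, a difference of -0.16 (interval -0.87 to 0.55, adjusted p = 0.656, permutation p = 0.608). The ratio of Tox to Cd3e differed by -0.55 (interval -1.81 to 0.71, exact permutation p = 0.151) and by -0.28 (interval -0.92 to 0.36, permutation p = 0.178).

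Id2 differed by more than Tbx21 and Tox did, by -0.85 after 2 doses (exact permutation p = 0.0476) and by -0.76 in PD-1cKO (permutation p = 0.00367). Neither difference was called by limma (adjusted p = 0.118 and 0.0223).

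The other 6 members were called lower relative to Cd3e in both experiments, against 88.8% of all genes after 2 doses and 92.1% in PD-1cKO. Their falls were at least 1.71 on the log2 scale after 2 doses and at least 1.21 in PD-1cKO. The median of all genes was -2.56 and -2.16 there. The call of Batf after 2 doses held in 7 of the 10 fits that left out 1 tumor (limma adjusted p up to 0.0121). Lef1 fell by 3.17 after 2 doses, from a mean ratio of 1.40 ± 0.76 to -1.77 ± 0.93 (n = 5 each, exact permutation p = 0.00794), and by 2.43 in PD-1cKO. Tcf7 fell by 2.72 after 2 doses, from 2.91 ± 0.81 to 0.19 ± 0.86 (n = 5 each, exact permutation p = 0.00794), and by 2.37 in PD-1cKO (permutation p = 6e-05). Prdm1, Batf and Gata3 fell by 2.45, 1.71 and 2.64 after 2 doses and by 2.35, 1.21 and 2.24 in PD-1cKO, and Eomes by 2.38 and 1.55.

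After 1 dose 4 members were called lower relative to Cd3e (Eomes, Gata3, Tcf7 and Lef1), against 75.1% of all genes (10929). The count of all genes was 18 without isotype control tumor 1, ran from 14 to 13161 over the 10 fits that left out 1 tumor, and was 1 with Ptprc in place of Cd3e, so that neither it nor the count of members was stable. The count of members was 0 without isotype control tumor 1, in which Cd3e was at 0.0455 FPKM. It was also 0 without isotype control tumor 2 or 5 and without any of PD-1 Ab-treated tumors 2 to 5, and it was 7 without isotype control tumor 3 or 4. The ratios of Tbx21 and Tox to Cd3e differed by -1.06 and -1.25 (exact permutation p = 0.0238 and 0.0159) and were not called (limma adjusted p = 0.208 and 0.176). With 1 tumor left out, isotype control tumor 1 among them, that of Tbx21 ran from -1.24 to -0.85 over 10 fits. That of Tox ran from -1.49 to -0.93 over 8 fits, since it fell under the filter in the others.

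**Figure D3:**
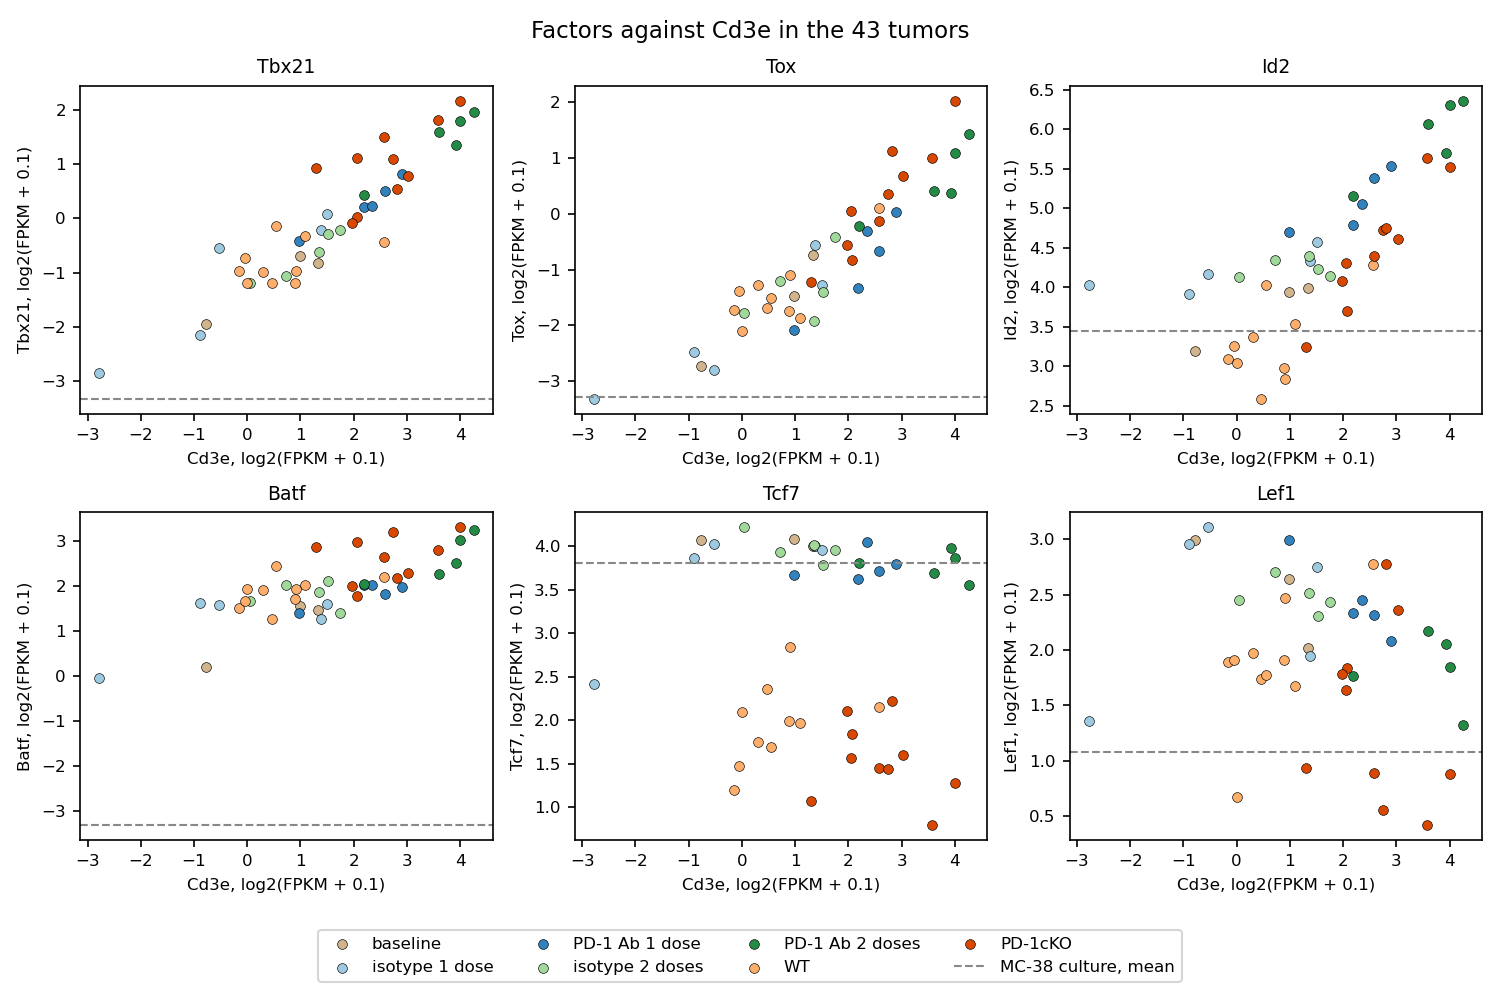
Level of 6 members against that of Cd3e, both as log2(FPKM + 0.1), in the 43 tumors. Colors give the 7 tumor groups and the dashed line is the mean of the MC-38 cultures. Tbx21, Tox and Id2 are higher in tumors with more Cd3e across groups, while tumors of the tamoxifen experiment lie below nearly all those of the antibody experiment in Tcf7.

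The effector and exhaustion factors were set directly against Tcf7 and Lef1. Cultured MC-38 cells expressed Tcf7 and Lef1 as well, so these ratios of bulk RNA need not be those of T cells. The culture mean of Tcf7 was 102% of the mean in PD-1 Ab-treated tumors after 2 doses and 477% of that in PD-1cKO. Tcf7 itself changed by -0.20 after 2 doses and by -0.41 in PD-1cKO, without a call. A rise relative to Tcf7 thus largely repeats the rise of the gene itself. After 2 doses Tbx21, Tox and Id2 rose relative to Tcf7, against 7.12% of all genes called higher, and Tbx21, Tox, Id2 and Batf rose relative to Lef1, against 20.2%. In PD-1cKO Tbx21, Tox, Id2 and Batf rose relative to Tcf7, against 7.7%, and Tbx21 and Tox relative to Lef1, against 1.35%. Eomes, Prdm1 and Gata3 were called in none of the 4 fits. Tox averaged under the filter in both control groups (0.321 and 0.311 FPKM), and Tbx21 in WT (0.488). They entered these fits through the group where they were high, and the fits relative to Tcf7 and Lef1 were not run without the filter. Relative to Tcf7, the call of Tox after 2 doses held in 5 of the 10 fits that left out 1 tumor (adjusted p up to 0.0165), and that of Batf in PD-1cKO in 5 of 20 (adjusted p up to 0.02).

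The log2 ratio of Tbx21 to Tcf7 was between -5.42 and -4.07 in isotype control tumors after 2 doses and between -3.38 and -1.60 in PD-1 Ab-treated tumors, without overlap. It rose by 2.30 (SE 0.37, adjusted p = 0.00132). In WT tumors the ratio had a lowest, median and highest value of -3.80, -2.66 and -1.83, and in tumors labelled PD-1cKO of -2.20, -0.41 and 1.02. It rose by 2.21 (SE 0.38, adjusted p = 0.00094). Tbx21 exceeded Tcf7 in FPKM in 3 of the 10 tumors labelled PD-1cKO and in no other tumor. The controls of the experiments differed in Tcf7 too, at a mean of 3.96 FPKM in WT and 15.8 in isotype control tumors after 2 doses. The median of Tbx21 was 1.92 FPKM in tumors labelled PD-1cKO and 2.92 in PD-1 Ab-treated tumors after 2 doses. Which tumors pass equal levels therefore does not compare the responses of the experiments.

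The ratio of Tbx21 to Lef1 rose by 2.75 after 2 doses (SE 0.38, adjusted p = 4.36e-05) and by 2.27 in PD-1cKO (SE 0.44, adjusted p = 0.00513). It was above 0 in 1 of 5 PD-1 Ab-treated tumors after 2 doses and in 4 of 10 tumors labelled PD-1cKO. The count of members called relative to Lef1 in PD-1cKO moved between 0 and 4 when single tumors were left out. It was 0 without PD-1cKO tumor 5 or 7 or WT tumor 1, 4, 6, 7, 8 or 10, it was 1 without PD-1cKO tumor 8 or WT tumor 3, and it was 4 without PD-1cKO tumor 9.

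The 2 naive and memory factors did not part from each other by the call rule. The ratio of Tcf7 to Lef1 differed by 0.45 after 2 doses (95% interval 0.05 to 0.85, adjusted p = 0.0559, exact permutation p = 0.0238) and by 0.06 in PD-1cKO (interval -0.49 to 0.61, adjusted p = 0.901).

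**Figure D4:**
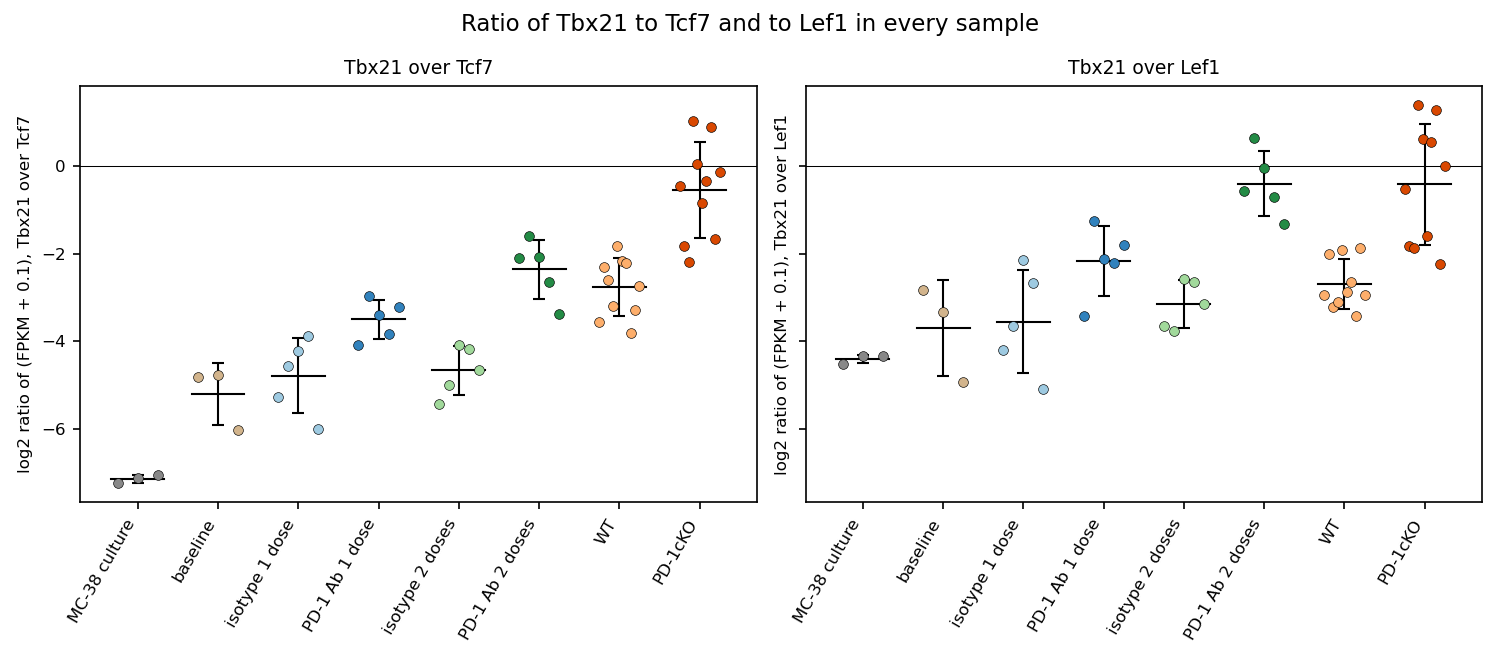
Log2 ratio of Tbx21 to Tcf7 (left) and to Lef1 (right) in every sample by group, computed after 0.1 FPKM is added. Each point is a sample, the long bar is the group mean, the whisker is the SD and the line at 0 marks equal levels. Points above 0 are 3 of 10 tumors labelled PD-1cKO on the left, and 4 of 10 of them and 1 of 5 PD-1 Ab-treated tumors after 2 doses on the right. The ratios are of bulk RNA, and Tcf7 was lower in WT tumors and in tumors labelled PD-1cKO than in the tumors after 2 doses.

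Among the 10 tumors of a group, the members were also followed along Cd3e. In tumors labelled PD-1cKO, Tox rose by 1.15 (SE 0.18, adjusted p = 0.00425) and Id2 by 0.87 (SE 0.11, adjusted p = 0.00265) for each doubling of Cd3e, and 3.52% of all genes had a slope called above 0. The correlation of Id2 with Cd3e was r = 0.956 (permutation p = 5e-05) and rho = 0.915 (permutation p = 0.00061), with r = 0.917 without the 2 tumors farthest from the median of Cd3e. For Tox these values were r = 0.935 (permutation p = 0.00016), rho = 0.903 (permutation p = 0.00091) and r = 0.835. Without those 2 tumors the slopes were 1.06 for Tox (adjusted p = 0.158) and 0.93 for Id2 (adjusted p = 0.112), and no slope of any gene was called, against 1193 with all 10 tumors.

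Eomes and Tbx21 followed Cd3e more loosely. Eomes was at r = 0.776 (permutation p = 0.00828) and rho = 0.527 (permutation p = 0.123), and at r = 0.474 without the 2 farthest tumors. Tbx21 was at r = 0.662 (permutation p = 0.036) and rho = 0.527 (permutation p = 0.123), and at r = 0.670 without the 2 farthest tumors. Tcf7 had r = -0.269 (permutation p = 0.454) and Lef1 r = -0.192 (permutation p = 0.593), which were -0.639 and -0.297 without the 2 farthest tumors. In WT tumors no slope was called (0% called higher and 0% called lower), with 2401 of 14380 genes and 3 of the 7 members tested at an unadjusted p under 0.05. Tbx21 and Tox were under the filter there. Prdm1 had r = 0.784 (permutation p = 0.0046) and rho = 0.903 (permutation p = 0.00067) in WT, and r = 0.778 without the 2 farthest tumors, but r = -0.105 in PD-1cKO. Tox in WT went from r = 0.769 to 0.054 without the 2 farthest tumors, so that relation rested on them. In all 18 such relations were computed, and their p-values are not adjusted.

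Across the 43 tumors, after the mean of each group was subtracted, the genes most like each member were named as a description. All points share their libraries, and the median correlation over 13228 genes differed by member. The 43 tumors include isotype control tumor 1 after 1 dose, which stood far below the rest of its group in Prdm1, Gata3 and Tcf7. No correlation was computed without that tumor. Those nearest Tbx21 were Il2rb (r = 0.911), H2-Aa (0.910) and Unc13d (0.909), against a median of 0.141. Tox was nearest Enpp4 (0.905), Ikzf3 (0.872) and Themis (0.867), and Id2 was nearest N4bp2l1 (0.894), Klrd1 (0.883) and Cd53 (0.881). Eomes had Abcd2 (0.772), Tmc8 (0.764) and Stra6l (0.751), and Batf had C2 (0.826), Tnfsf13 (0.819) and Eepd1 (0.815).

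Among the genes nearest Tcf7 were Ywhag (0.890) and Gnb1 (0.875), against a median of 0.409. Lef1 had Nr2f2 (0.859), Mid1 (0.853) and Zfp280b (0.844), and Gata3 had Rara (0.921), Selenon (0.899) and Dennd2a (0.895), against a median of 0.475. Prdm1 had Ankrd17 (0.939), Gatad2b (0.930) and Twsg1 (0.926), against a median of 0.433. Among the members themselves, Tox and Tbx21 went with Cd3e at 0.849 and 0.803, Gata3 with Tcf7 at 0.845 and Tbx21 with Batf at 0.723, whereas Tbx21 and Tcf7 had 0.00063. These values include isotype control tumor 1 after 1 dose as well, and how far that of Gata3 with Tcf7 rests on it was not tested.

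Other genes of the same programs were taken from lists. After 2 doses, 4 of 15 other regulators of the effector and exhausted states were called higher, among them Ikzf3 (2.77), Irf4 (2.38) and Stat4 (1.81), and in PD-1cKO 2 of 14 tested were, Ikzf3 (1.65) and Irf4 (1.11). None of the 8 other naive and memory regulators was called in either. Over all genes 5.03% were called higher after 2 doses and 4.2% in PD-1cKO, so 0 of 8 sets no contrast between the lists. The lowest p among these 8 belonged to Klf2 after 2 doses (0.75, limma adjusted p = 0.047) and in PD-1cKO (0.81, limma adjusted p = 0.00385, under 2-fold). Of the other lineage regulators, 0 of 4 tested and 1 of 4 tested (Zbtb16, 1.59) were called.

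The median log2 change was 0.69 and 0.41 for the effector and exhaustion list and 0.28 and 0.37 for the naive and memory list, after 2 doses and in PD-1cKO, beside -0.04 and -0.20 over all genes. Effector products rose in 8 of 10 and 7 of 10 genes, led by Gzmk (4.30 and 2.62), a granzyme of cytotoxic cells. Inhibitory receptors rose in 5 of 6 and 3 of 6, among them Tigit (2.69 and 1.51) and Lag3 (2.44 and 1.62). Surface genes of naive and memory cells rose in 2 of 6 and 1 of 6 tested, with Il7r, the interleukin-7 receptor, in both (2.78 and 1.55). All 9 genes of the T-cell receptor complex and all 3 coreceptors rose in both comparisons. No gene of these lists was called lower in either, against 0.272% and 3.87% of all genes. None was called after 1 dose, where no gene of the table was. The comparisons of PD-1cKO and of 2 doses share no samples, whereas both the culture and the baseline comparison share their isotype control tumors with that of 2 doses.

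Markers of macrophages rose in both comparisons, and those of dendritic cells after 2 doses. Beside the counts that follow, 5.03% of all genes were called higher after 2 doses and 4.2% in PD-1cKO. Macrophage genes were called higher in 5 of 5 after 2 doses and 3 of 5 in PD-1cKO, with summed levels of 1092 to 3112 FPKM against 668 to 877 and of 985 to 3413 against 571 to 1054. Dendritic cell genes were called higher in 3 of 5 (summed 62.7 to 82.1 FPKM against 28.0 to 42.6) and in 0 of 4 tested (66.0 to 259.8 against 44.1 to 76.4). Natural killer cell genes were called higher in 1 of 4 tested and 0 of 3, with a median log2 change of 1.36 after 2 doses and -0.14 in PD-1cKO. Their summed levels (38.8 to 54.9 FPKM against 38.3 to 58.9, and 5.18 to 34.8 against 18.0 to 37.0) were mostly Klra4, named after its values were seen, which averaged 40.1 FPKM against 42.5 after 2 doses and 23.5 in culture, where Ncr1, Klrb1c and Klra8 were at 0. None of these marker genes was at 0 in all tumors of a group. The part of such cells in the rise of Tbx21, Tox, Id2 and Batf was not tested.

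The lists of further cell types were read in the same way. After 2 doses and in PD-1cKO, respectively, the counts of genes called higher among those tested were 0 of 3 and 0 of 2 for keratinocytes, 0 of 1 and 0 of 2 for type 2 lymphoid cells, 0 of 4 and 2 of 4 for fibroblasts (Col1a2, 1.94, and Col1a1, 1.68), 1 of 4 and 0 of 4 for endothelium (Pecam1, 1.50) and 1 of 4 and 0 of 4 for adipocytes (Plin1, 2.99). B cell genes gave 0 of 4 and 0 of 1, and plasma cell genes 0 of 3 and 0 of 3. No gene of these lists was called lower. The shares over all genes were 5.03% and 4.2% called higher and 0.272% and 3.87% called lower, so counts of 0 in lists this short say little.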

How the data were processed

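RNA-seq of bulk tissue was analysed in all 46 samples, grouped by their labels. Per the labels and methods, the authors made stranded total RNA libraries depleted of ribosomal RNA, read 50 bases from both ends, aligned to mouse build B38 with the OSA aligner of Array Studio (at most 2 mismatches) and quantified Ensembl genes. The deposited values are FPKM for 48795 genes, of which 446 carry no symbol. The authors tested counts with DESeq2, which FPKM does not allow, and because FPKM removes depth no count interval or floor was computed. A legend of the study describes the treated tumors as those of individual animals. No source used here says that the 3 cultures were separate, so p-values against them measure the spread between these samples, which may be technical.

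Values were used as deposited. A gene was tested where 1 of the groups averaged 0.5 FPKM or more. Its log2 values, with 0.1 FPKM added, entered limma 3.58.1 (R 4.3.3, lmFit and eBayes with a trend) with only the samples of the groups compared. Benjamini-Hochberg adjustment ran over all tested genes, and a call required 2-fold or more and an adjusted p under 0.01. Fits relative to Cd3e, Tcf7 or Lef1 subtracted that gene's log2 value from every gene first. Slopes on Cd3e were fitted within the 10 tumors of a group, and the differences between models and doses were contrasts over 4 groups. Fold changes are on the log2(FPKM + 0.1) scale and understate the change of low genes. Permutation tests of ratios and correlations were 2-sided, exact for 5 against 5 tumors and otherwise with 100000 resamples (Python 3.11.15, scipy 1.17.1, numpy 2.4.6, pandas 2.3.3).

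The named genes are the 9 members and Cd3e, in each of 18 lists (109 genes) at most 4 called genes with the largest change and a mean of at least 1 FPKM or else those with the lowest p, and for each member the 3 genes most like it. Of the genes this rule names, 2 are not reported here by themselves and stay in the counts. The members and lists were chosen with earlier results of these data known. Symbols and positions came from GENCODE M21. The limma steps were tested on simulated data. Alternatives were 1 FPKM added, a filter at 1 FPKM or none, other scalings, eBayes without a trend, other call limits, all groups in 1 fit, the replicate number as a block, the run of sample identifiers, other reference genes for T cells and leaving out each replicate. The permutation test of ratios was added after seeing the data.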

Additional observations from a re-analysis of the deposited data

Results flagged for a closer look

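In 7 of the 54 combinations of a member with a group of 5 or 10 samples, the highest or lowest sample stood farther from the next than Dixon's 95% limit allows, where chance gives about 1 in 20. Of these 7, 3 fell on isotype control tumor 1 after 1 dose, the tumor with 54.6% of its FPKM in mitochondrial genes. There Prdm1 was at 4.83 FPKM (next lowest 12.7), Gata3 at 0.732 (next lowest 4.38) and Tcf7 at 5.26 (next lowest 14.5). Tox was at 0.970 FPKM in WT tumor 3 (next highest 0.367) and at 3.98 in PD-1cKO tumor 8 (next highest 2.09). Gata3 was at 5.22 FPKM in PD-1 Ab-treated tumor 5 after 2 doses (next highest 4.10) and at 3.13 in WT tumor 8 (next highest 1.84).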

How the results depend on the processing

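Tbx21, Tox and Id2 kept their direction after 2 doses and in PD-1cKO in every alternative run. The number of members called after 2 doses fell from 3 to 1 with the replicate number as a block. In PD-1cKO it fell from 3 to 1 with 1 FPKM added and to 0 with the run of sample identifiers as a covariate, where no gene at all was called. Slopes on Cd3e called in PD-1cKO fell from 2 to 0 without the 2 tumors farthest from its median.

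The replicate numbers do not pair the samples, because correlations of the deviations of same-numbered tumors ran from -0.17 to 0.16 for 1 dose, from -0.21 to 0.04 for 2 doses and from -0.19 to 0.11 in PD-1cKO. The block moved the count relative to Lef1 in PD-1cKO from 2 to 0 and the count of all genes called after 2 doses from 799 to 316.

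After 1 dose, changes in sign were Lef1 at -0.00516 with 1 FPKM added, and Eomes, Tcf7 and Lef1 at -0.189, -0.131 and -0.234 with median-of-ratios scaling and at -0.208, -0.152 and -0.254 with upper-quartile scaling. Leaving out single tumors gave ranges there of -0.119 to 0.207 for Eomes, -0.00404 to 0.630 for Gata3, -0.188 to 0.212 for Tcf7 and -0.253 to 0.185 for Lef1. Other ranges that crossed 0 were those of Prdm1 after 2 doses (-0.0886 to 0.262) and Lef1 at baseline (-0.155 to 0.336).

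Relative to Cd3e after 1 dose, 4 members were called, 7 at an adjusted p under 0.05, 0 with the mean of 4 CD3 genes, Cd8a or Ptprc as the reference, and 0 to 7 with single tumors left out. With Ptprc, Tbx21, Tox and Id2 turned positive, at 0.621, 0.430 and 0.111 after 1 dose and at 0.683, 0.553 and 0.252 after 2 doses. In PD-1cKO the count with Ptprc was 2 (from 6), with Tbx21 at 1.37, Tox at 1.25, Id2 at 0.767 and Batf at 0.315, and the mean of 4 CD3 genes gave Tbx21 0.147 and Tox 0.0261. Ptprc marks all white blood cells, so a ratio to it asks another question.

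Relative to Lef1 in PD-1cKO the count was 0 with 1 FPKM added, 4 at an adjusted p under 0.05 and 0 to 4 with single tumors left out, and the ratio of Tcf7 ran from -0.0271 to 0.208. Relative to Tcf7 in PD-1cKO, Prdm1 was at -0.00201 with 1 FPKM added and ran from -0.0712 to 0.126, and Lef1 from -0.208 to 0.0271. Over all genes the count in PD-1cKO was 1217, 0 with the run as a covariate, 3217 with no fold limit and 743 to 1871 with single tumors left out. After 2 doses it was 799, 1427 at an adjusted p under 0.05 and 375 to 1534 with single tumors left out. Apart from these comparisons' values above, the cause of a change was not tested. The depth of each sample is unknown. Tox averaged under the filter in all 3 control groups (0.203 to 0.321 FPKM), and Tbx21 in WT and isotype control tumors after 1 dose (0.488 and 0.494).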
